A study of Mus musculus with 4 samples.

Results

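Integrins and laminins are the receptors and ligands by which cells hold on to basement membranes, and their genes were followed here through the cell classes of mouse small intestinal epithelium and mouse lung. The members were all genes of the singlet count tables whose symbol is that of an integrin alpha or beta chain (Itga or Itgb) or of a laminin alpha, beta or gamma chain (Lama, Lamb or Lamc). This gave 37 genes of 21036, of which 26 were integrins and 11 laminins. All 37 were listed in the lung singlets and lung multiplets. In the small intestine 28 were listed in the singlets and 29 in the multiplets, and Itga8, Itga11, Itgax, Itgb3, Lama1, Lama2 and Lamc3 were listed in neither.

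C57BL/6J mice, which are inbred, were the source of 4 libraries for droplet single-cell RNA sequencing, with no treatment or altered gene named. Small intestinal epithelium and lung, after mechanical and enzymatic dissociation, each gave a library of multiplets (clusters of attached cells that share a droplet and its barcode) and a library of singlets. There was 1 library per group, the labels name no separate animals, and differences between libraries therefore have no replicate check. No test was run, "higher" and "lower" mean more than 1.5-fold, and the 95% intervals cover counting error only. The values are unique molecular identifiers (UMIs), each standing for a captured transcript end, and CPM means UMIs per 1000000 UMIs of the library or of the cell class. Because the kit reads the end of a transcript, levels are compared within a gene and not between genes.

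Libraries held 3671 barcodes of intestinal multiplets, 5279 of intestinal singlets, 4729 of lung multiplets and 6084 of lung singlets. The median depth was 12603 UMIs per barcode in intestinal multiplets and 8759 in intestinal singlets, and 11934 in lung multiplets and 7896 in lung singlets. Cell classes are those of the authors' deposited annotation. The marker lists fitted these names in the lung for all 6 endothelial markers (Pecam1, Cdh5, Cldn5, Kdr, Emcn and Tek), which led in the endothelial class, and for all 5 natural killer (NK) cell markers, which led in the NK class. Some lists fitted in part. Gzma, Gzmb and Nkg7 of the T cell list led in NK cells. Ager and Cldn18 of the type I pneumocyte list led in type II pneumocytes, with 743 and 891 CPM. The class named macrophage led in markers of more than 1 type, with C1qa at 228 CPM and the neutrophil alarmin S100a8 at 1382 CPM. Lung has 6 singlets named type I pneumocytes and 10 named mesothelial cells, so these classes are described but not ranked. A class was said to lead in a gene when its CPM was at least 2 times that of the next class, among classes of at least 50 barcodes.

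Every integrin is a pair of an alpha and a beta chain that spans the cell membrane and binds matrix or another cell outside and the actin or keratin skeleton inside. The alpha chain largely sets the ligand (collagen, laminin, proteins with an RGD tripeptide, or counter-receptors on other cells), while the Itgb2 and Itgb7 partners are restricted to blood cells. A laminin is a cross-shaped trimer of an alpha, a beta and a gamma chain that is secreted and assembles into the sheet of a basement membrane, which lies under epithelium and endothelium and is bound by integrins and dystroglycan.

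In lung singlets 35 of the 37 members had at least 50 UMIs and were ranked, the others being Itgad with 43 UMIs and Lama1 with 9. A class led in 15 of the 35, and 25.5% of 14452 lung genes with as many UMIs led in a class as well. Among these, endothelial cells led in Itga1, Itga5 and Itga6, type II pneumocytes in Itga7, Itgb6 and Lama3, and fibroblast-2 cells in Itga2b, Itga11 and Lamc3. Other leading classes were fibroblast-1 for Itga8, alveolar macrophages for Itgax, NK cells for Itga2, T cells for Itgb3 and ciliated cells for Itgb4. The remaining 20 ranked members were shared between classes.

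**Figure D1:**
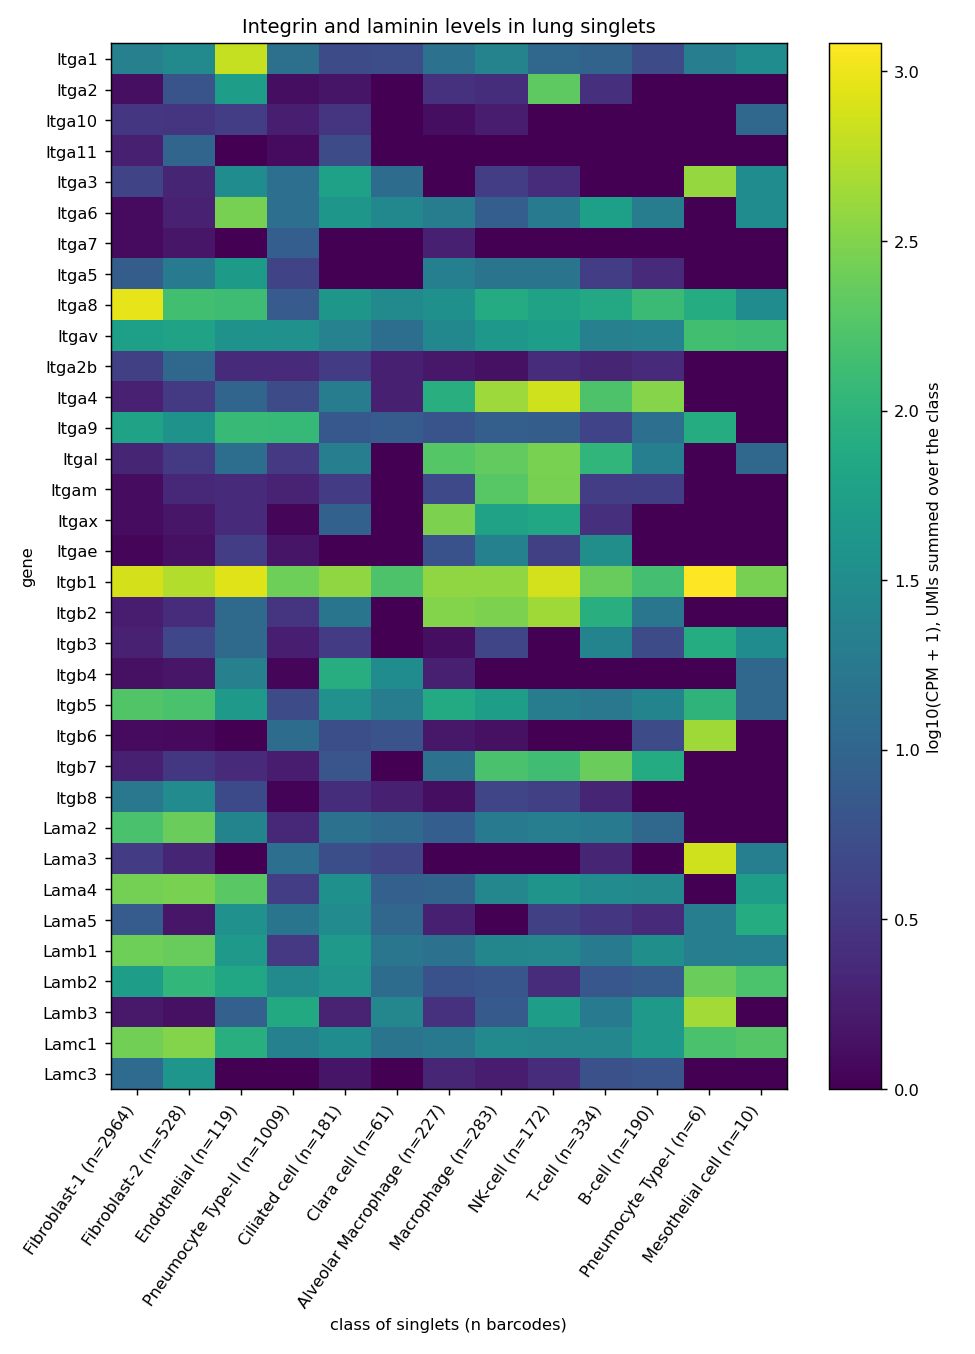
Levels of 34 of the 35 ranked members (rows) in the 13 lung singlet classes (columns, with their number of barcodes), as log10 of CPM plus 1, with UMIs summed over the class. Itga8 is brightest in fibroblast-1 cells at 931 CPM, Itga1 in endothelial cells at 646 CPM and Itgax in alveolar macrophages at 295 CPM, while Itgb1 is present in every class.

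Among the chains that bind collagen, Itga1, which with Itgb1 forms a receptor for basement membrane collagen, stood at 646 CPM in endothelial cells (589.8 to 705). The next class, fibroblast-2, had 28.4 CPM, and ciliated cells were lowest among the ranked classes with 4.05 CPM. The endothelial level was 22.7 times the next, the widest gap among the members. When each of the 119 endothelial singlets counted equally, the level was 897 CPM. Itga2, the other broadly used collagen receptor chain and a surface marker of NK cells in this mouse strain, had 206 CPM in NK cells (174 to 243) and 52.6 CPM in endothelial cells. The remaining classes had 5.32 CPM or less. Itga11, a collagen receptor chain of fibroblasts, was scarce, with 9.17 CPM in fibroblast-2 cells and 0.881 CPM in fibroblast-1 cells, and Itga10 did not pass 2.63 CPM in any ranked class.

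The laminin-binding alpha chains each had a pattern of their own. Itga6, which pairs with Itgb1 or with Itgb4, had 281 CPM in endothelial cells (245 to 322), 54.4 CPM in T cells and 41.5 CPM in ciliated cells. Fibroblast-1 cells had 5 Itga6 UMIs in all, or 0.232 CPM. Itga3, a receptor chain for the laminins of epithelium, was highest among ranked classes in ciliated cells with 56.7 CPM, followed by endothelial cells with 30.2 CPM. The 6 type I singlets had 396 CPM of Itga3 from 20 UMIs (242 to 611). Itga7, known as a laminin receptor of muscle, had 120 of its 131 UMIs in type II pneumocytes, at 7.41 CPM (6.14 to 8.86).

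Of the chains that bind RGD ligands, Itga8 was the member with the sharpest fibroblast pattern. It had 931 CPM in fibroblast-1 cells (918 to 944) and 141 CPM in fibroblast-2 cells, and 71.7% of fibroblast-1 barcodes held an Itga8 UMI when each was thinned to 1500 UMIs (98.2% unthinned). In type II pneumocytes, which should lack it, the thinned share was 0.991% (4.86% unthinned), with median depths of 6562 UMIs in fibroblast-1 cells and 16009 in type II cells. Endothelial cells had 133 CPM of Itga8, with 88.1% of their 101 UMIs in 10 barcodes. Of the 118 Itga8 UMIs in alveolar macrophages, 73.7% lay in 10 barcodes. Itga5, the main fibronectin receptor chain, led in endothelial cells with 47.3 CPM, against 20.2 CPM in alveolar macrophages. Itgav, which pairs with many beta chains and helps release active TGF-beta, was even by comparison, between 12.0 CPM in Clara cells and 58.0 CPM in fibroblast-2 cells among ranked classes. In Clara cells, the secretory cells of the airway, Scgb1a1 alone had 506586 CPM, which leaves fewer counts for every other gene. Itga2b, the fibrinogen receptor chain of platelets, had 9.91 CPM in fibroblast-2 cells and 2.87 CPM in fibroblast-1 cells.

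Itga4, which binds Vcam1 and fibronectin, was high in lymphocytes and macrophages. It had 724 CPM in NK cells (662 to 790), 426 CPM in macrophages, 336 CPM in B cells, 165 CPM in T cells and 84.1 CPM in alveolar macrophages. No other ranked class exceeded 18.7 CPM. Its closest relative Itga9 had another pattern, with 120 CPM in endothelial cells (96.4 to 147), 114 CPM in type II pneumocytes (109 to 120) and 58.4 CPM in fibroblast-1 cells, and the endothelial and type II intervals overlapped. The endothelial UMIs of Itga9 were unevenly spread, with 53.8% of 91 in 10 barcodes, against 4.38% of 1850 in type II pneumocytes.

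The leukocyte alpha chains that pair with Itgb2 were high in overlapping sets of classes. Itgal, the receptor chain for Icam1 and Icam2 on lymphocytes, had 288 CPM in NK cells, 216 CPM in macrophages, 184 CPM in alveolar macrophages and 106 CPM in T cells. Itgam, the complement receptor chain of myeloid cells, had 280 CPM in NK cells and 190 CPM in macrophages but only 3.81 CPM in alveolar macrophages. Itgax, the chain used to mark alveolar macrophages and dendritic cells, had 295 CPM in alveolar macrophages (278 to 314), 68.7 CPM in NK cells and 58.7 CPM in macrophages. Itgam and Itgax thus differed in alveolar macrophages, although they lie side by side on chromosome 7. Itgad, a further neighbour, had 38 of its 43 UMIs in alveolar macrophages at 11.1 CPM. Itgae, which pairs with Itgb7 and binds E-cadherin, had 32.2 CPM in T cells (24.6 to 41.4) and 21.7 CPM in macrophages (16.5 to 28.1), with 75.4% of the macrophage UMIs in 10 of 283 barcodes.

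The promoters of Itgam and Itgax are shown because these neighbouring genes share the partner Itgb2 and differed in the lung macrophage classes. The sequences are from RefSeq, build GRCm38.p6, and run from 250 bases before the annotated start to 50 bases after it. Of the 37 members, 23 had such sequences, 26 in all, and no entry was used for Itgal or Itgb2. Each was searched on both strands for GAGGAA, a core of sites of the myeloid factor PU.1, and for TGANTCA, the AP-1 motif. Capitals mark the matches, and none of the matches shown overlaps another. The Itgam window (chr7:128062390-128062689, plus strand) and the Itgax window (chr7:128129300-128129599, plus strand) read as follows.
Itgam: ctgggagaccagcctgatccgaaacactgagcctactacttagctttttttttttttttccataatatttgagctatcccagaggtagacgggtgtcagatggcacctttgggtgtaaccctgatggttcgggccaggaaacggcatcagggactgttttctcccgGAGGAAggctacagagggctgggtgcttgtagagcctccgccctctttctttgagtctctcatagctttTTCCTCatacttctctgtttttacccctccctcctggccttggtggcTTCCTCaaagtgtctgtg
Itgax: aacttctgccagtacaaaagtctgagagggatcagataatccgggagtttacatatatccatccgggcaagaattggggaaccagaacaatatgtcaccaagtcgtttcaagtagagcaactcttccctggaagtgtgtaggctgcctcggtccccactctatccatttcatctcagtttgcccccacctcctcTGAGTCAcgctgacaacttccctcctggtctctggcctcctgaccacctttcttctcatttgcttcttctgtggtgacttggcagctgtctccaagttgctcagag
The Itgam window held 3 GAGGAA matches, starting at offsets -84, -15 and 32 from the annotated start, and no TGANTCA. Itgax held a TGANTCA match at offset -56 and no GAGGAA. Of 32851 promoter windows of the same length, 28.3% held at least 1 GAGGAA and 0.685% held 3 or more, while 7.81% held TGANTCA. Of the 26 member windows, 14 held GAGGAA and 3 held TGANTCA. Those with GAGGAA included Lama2 and Lamb1, which were high in fibroblasts. A match describes letters in this window and does not show binding.

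Among the beta chains, Itgb1, the partner of most alpha chains, was present in every lung class. Ranked classes ranged from 143 CPM in B cells to 848 CPM in endothelial cells (784 to 916), with 768 CPM in fibroblast-1 cells and 753 CPM in NK cells. Itgb2 followed its leukocyte partners, with 439 CPM in NK cells, 325 CPM in alveolar macrophages, 297 CPM in macrophages and 83.5 CPM in T cells. Itgb7 had 240 CPM in T cells, 156 CPM in macrophages, 137 CPM in NK cells and 77 CPM in B cells. Itgb4, the hemidesmosome chain that joins laminin to keratin, led in ciliated cells with 82.0 CPM (69.8 to 95.6), and Clara cells came next with 30.8 CPM. Itgb5, a vitronectin receptor chain, was high in both fibroblast classes, at 174 and 157 CPM, and Itgb8, which with Itgav activates TGF-beta, was highest in fibroblast-2 cells at 29.7 CPM. Itgb6, an epithelial chain with the same activating role, had 11.2 CPM in type II pneumocytes and 436 CPM in the 6 type I singlets (273 to 659). Itgb3, the platelet and osteoclast chain, had 23.8 CPM in T cells from 45 UMIs in 37 barcodes. The platelet marker Pf4 was also highest in T cells, at 19.5 CPM, with ciliated cells next at 13.7 CPM, so no class led in it. The platelet markers Gp9 and Gp1bb had 4 and 5 UMIs in lung singlets, too few to rank. Itga2b, the platelet alpha chain, led in fibroblast-2 cells at 9.91 CPM. The part of platelet RNA in the Itgb3 value was not tested.

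Several laminin chains formed a fibroblast set. Lama2, Lama4, Lamb1 and Lamc1, chains of the laminins of mesenchyme and vessels, were each high in both fibroblast classes. Lama2 had 235 CPM in fibroblast-2 cells and 157 CPM in fibroblast-1 cells, and Lama4 had 291 CPM and 272 CPM there. Lamb1 had 228 and 251 CPM, and Lamc1 had 320 and 267 CPM, in fibroblast-2 and fibroblast-1 cells. Endothelial cells had 193 CPM of Lama4 (163 to 227) but 23.7 CPM of Lama2. Lamc3, the rarer gamma chain, led in fibroblast-2 cells with 40.5 CPM, against 10.8 CPM in fibroblast-1 cells.

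Lama3 and Lamb3 encode chains of the laminin that anchors epithelium to the membrane below. In type I singlets they had 732 and 455 CPM, and type II pneumocytes had 12.3 and 73.2 CPM. The type I values rest on 37 and 23 UMIs in 6 barcodes, and their intervals reach from 516 to 1010 CPM for Lama3. Lamb3 also had 52.9 CPM in NK cells and 45.4 CPM in B cells, spread over 33 and 30 barcodes. Lama5, the alpha chain of most adult epithelial and endothelial membranes, was low, with 35.5 CPM in endothelial cells, 29.9 CPM in ciliated cells and 14.7 CPM in type II pneumocytes. Lamb2 had 110 CPM in fibroblast-2 cells, 69.7 CPM in endothelial cells and 50.7 CPM in fibroblast-1 cells. The 10 mesothelial singlets had 161 CPM of Lamb2, 182 CPM of Lamc1 and 80.7 CPM of Lama5. Of the 9 Lama1 UMIs, 7 lay in 4 endothelial barcodes.

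Partner chains varied together to different degrees over the 11 ranked lung classes, which all come from the same library. Pearson's r was 0.99 for Itgal with Itgb2 (Spearman's rho 0.98), 0.95 for Itga4 with Itgb7 and 0.86 for Itgax with Itgb2. It was 0.96 for Lama2 with Lamb1 and 0.93 for Lama4 with Lamb1. Lamc1 had 0.89 with Lama4 and 0.87 with Lama2. Itgam with Itgb2 had 0.80, and Itgae with Itgb7 and Itgav with Itgb8 had 0.70 each. Some partners varied together less or not at all, with 0.51 for Itga6 with Itgb4 and 0.20 for Itga3 with Itgb1. Pearson's r was 0.06 for Lama3 with Lamb3, -0.11 for Lama5 with Lamb1 and -0.54 for Itgav with Itgb6. These coefficients describe 11 classes that differ in depth and number of barcodes.

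In small intestinal singlets 14 of the 28 listed members had at least 50 UMIs, and a class led in 1 of the 14, while 16.6% of 11556 intestinal genes led in a class. The exception was Itgam, with 12.6 CPM in the late-2 progenitors (7.81 to 19.3) from 21 UMIs in 19 barcodes, and 6.05 CPM in transit amplifying cells. Its partner Itgb2 was not listed in the intestinal singlets, and the exons of Itgam overlap those of Gm49368 on the same strand, a gene with 6 UMIs in the intestinal multiplets and 13 in the intestinal singlets. The ranked intestinal members included Itga1, Itga2, Itga3, Itga6, Itgav, Itgam, Itgb1, Itgb4, Itgb5, Itgb6, Lama5, Lamb3 and Lamc1. The integrins summed to 312 CPM and the laminins to 12.1 CPM over all intestinal singlets.

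**Figure D2:**
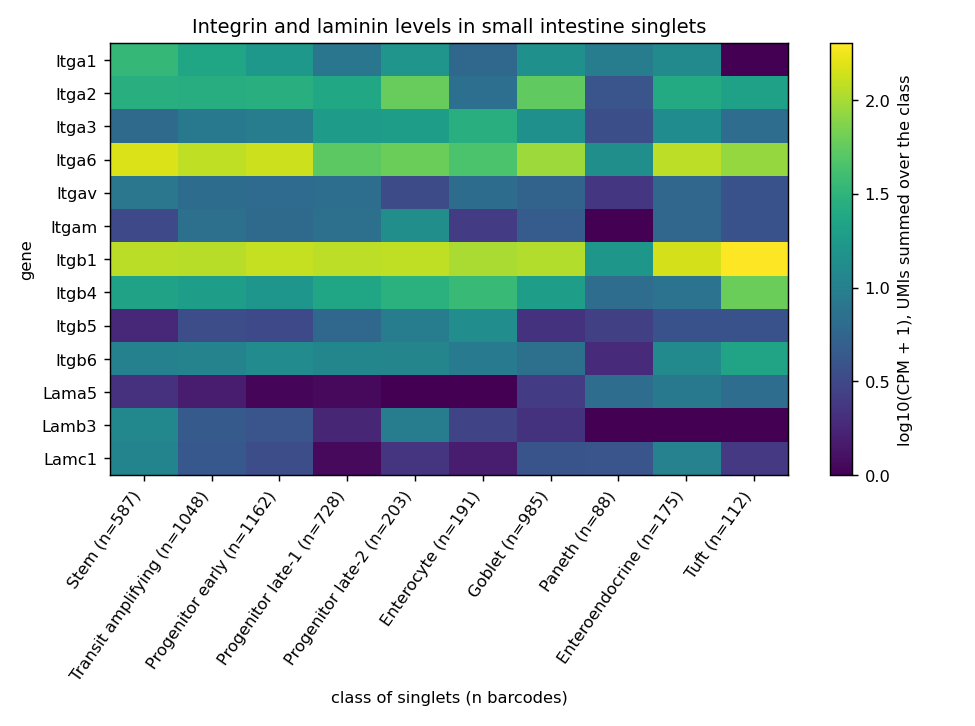
Levels of 13 of the 14 ranked members (rows) in the 10 classes of small intestinal singlets (columns, with their number of barcodes), as log10 of CPM plus 1, with UMIs summed over the class. Itga6 and Itgb1 are bright in all classes but Paneth cells, which have 13.0 and 15.6 CPM.

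Along the path of renewal the alpha chains were graded in opposite directions. Itga6, the laminin receptor chain that epithelial cells keep at their base, had 151 CPM in stem cells (138 to 164), 120 CPM in transit amplifying cells, 132 CPM in early progenitors, 51.5 CPM in late-1 progenitors, 59.5 CPM in late-2 progenitors and 43.4 CPM in enterocytes (34.8 to 53.6). Itga1 had 32.9 CPM in stem cells (27.2 to 39.4), 22.0 CPM in transit amplifying cells, 15.9 CPM in early progenitors, 7.08 CPM in late-1 progenitors and 4.99 CPM in enterocytes (2.39 to 9.18). Both were thus lower in enterocytes than in stem cells. Itga3 ran the other way, with 5.30 CPM in stem cells (3.19 to 8.28), 7.59 CPM in transit amplifying cells, 8.29 CPM in early progenitors, 17.3 CPM in late-1 progenitors and 27.4 CPM in enterocytes (20.7 to 35.7). Itgb5 had 0.837 CPM in stem cells, from 3 UMIs, and 12.5 CPM in enterocytes, from 25 UMIs. Itgb1 showed no such gradient, with 116 CPM in stem cells and 102 CPM in enterocytes.

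The secretory and sensory classes differed from this path. Itga2, the collagen receptor chain, had 54.2 CPM in goblet cells (49.5 to 59.2) and 57.7 CPM in late-2 progenitors, against 5.99 CPM in enterocytes and 3.03 CPM in Paneth cells. Tuft cells, the chemosensory cells of the epithelium, had the highest Itgb1 at 200 CPM (168 to 236), the highest Itgb4 at 59.5 CPM (42.9 to 80.4) and the highest Itgb6 at 21.2 CPM. Itga1 had 0 UMIs in the 112 tuft cells, with an exact upper bound of 5.23 CPM. Enteroendocrine cells, the hormone cells, held 13 of the 14 Itga4 UMIs in 6 barcodes and 4 of the 6 Itgb7 UMIs. Vim had 1123 CPM in the same class and 5.44 CPM in goblet cells, the next class, and its part in these values was not tested. Paneth cells, which secrete antimicrobial proteins at the crypt base, had the lowest integrin sum, 53.3 CPM, while the other classes lay between 249.5 and 412 CPM. Paneth cells were also the deepest class, with a median of 25594.5 UMIs, and Itgb1 had 0.409 UMIs per Paneth barcode, against 1.02 per goblet barcode and 1.07 per enterocyte barcode. Their laminin sum was 17.8 CPM, inside the range of the other classes.

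Intestinal laminins were few in every class. Lamb3 and Lamc1 were highest in stem cells, with 10.9 CPM (7.74 to 14.9) and 10 CPM (7.03 to 13.9). Lama5 had 51 UMIs in all, 14 of them in goblet cells and 13 in Paneth cells. Lamb1 had 24 UMIs, of which 19 lay in 15 of the 88 Paneth barcodes. Of the 6 stromal markers only Vim, an intermediate filament gene, had enough UMIs to count in the intestine, with 14.5 CPM in multiplets and 26.1 CPM in singlets (ratio 0.56). Of its 1247 UMIs in intestinal singlets, 1193 lay in enteroendocrine cells. Col1a1 was not listed in the intestinal multiplets and had 4 UMIs in the singlets.

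Summed over the lung, integrins gave 1380.25 CPM in multiplets and 1352.5 CPM in singlets, and laminins gave 267 CPM in multiplets and 597 CPM in singlets. Multiplet CPM was over 1.5-fold the singlet CPM for 15 of the 36 members with at least 50 UMIs in either lung library, where 15.9% of 15097 lung genes were higher. It was over 1.5-fold lower than the singlet CPM for 11 of the 36, where 13.8% of all genes were lower. All 15 higher members were integrins, and of the 10 laminins counted 0 were higher and 6 were lower. With every barcode weighted equally Lama3 was higher too. The median log2 ratio was -0.05 over the members and -0.05 over all counted genes. In such sums, fewer cells of a type and less RNA per cell cannot be told apart.

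Several marker lists of cell types also differed between lung multiplets and singlets, and their part in the ratios was not tested. Others did not: none of the 4 ciliated and 5 type II pneumocyte markers passed the limit. Of the 8 T cell markers 0 were higher and 3 were lower, Gzma, Gzmb and Nkg7, which led in NK cells among the singlets. The markers that led in T cells (Cd3d, Cd3e, Cd3g, Cd8a and Trac) did not pass the limit, with ratios from 0.96 (Cd3g) to 1.25 (Cd8a). All 6 endothelial markers were higher, with summed levels of 474 CPM in multiplets and 78.4 CPM in singlets, and all 6 neutrophil markers were higher, with 1737 and 172 CPM. All 5 alveolar macrophage markers were higher, with 1829.97 CPM in multiplets and 611 CPM in singlets. Of the 6 stromal markers 5 were lower, with 3065 CPM in multiplets and 5428 CPM in singlets. All 5 NK cell markers were lower, with 15.1 CPM in multiplets and 57.4 CPM in singlets. None of these 5 passed the limit when singlets shallower than the shallowest multiplet were left out, with ratios from 0.85 (Ncr1) to 1.21 (Eomes). NK singlets had a median depth of 3459 UMIs. Members highest in NK cells, such as Itga4 and Itgal, were higher in multiplets, unlike the NK markers. Neither Itga4 nor Itgal led in NK cells, with 724 and 288 CPM there and 426 and 216 CPM in macrophages.

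Among the collagen- and laminin-binding chains, Itga1 had 81.4 CPM in lung multiplets, against 25.7 CPM in singlets, a ratio of 3.17 (2.99 to 3.36). Itga6 had 33.2 CPM in multiplets and 13.3 CPM in singlets, a ratio of 2.50 (2.30 to 2.72). Itga3 had 13.6 CPM in multiplets and 8.05 CPM in singlets, a ratio of 1.68, as for Itga2 with 7.11 CPM in multiplets and 4.22 CPM in singlets. The Itga2 ratio was 1.18 when every barcode counted equally and 3.52 when singlets shallower than the shallowest multiplet were left out. The scarce chains Itga10 and Itga11 were lower, at 0.42 and 0.30 times the singlet level, from 39 and 28 UMIs in multiplets and 79 and 81 UMIs in singlets. Itga7 had a ratio of 0.82 (0.64 to 1.06), which was 1.29 with equal weights.

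Of the RGD-binding chains, Itga8 fell to 122 CPM in multiplets, against 384 CPM in singlets, a ratio of 0.32 (0.31 to 0.33). Itga5 was higher, with 13.4 CPM in multiplets and 8.16 CPM in singlets. Itgav was level, with 41.4 CPM in multiplets and 43.2 CPM in singlets, and Itga2b had 2.20 and 2.70 CPM in multiplets and singlets. Itga4 had 112 CPM in multiplets and 46.1 CPM in singlets, a ratio of 2.44 that was 1.61 when every barcode counted equally, while Itga9 was lower, at 38.7 CPM in multiplets and 61.4 CPM in singlets, a ratio of 0.63 that was 0.72 with equal weights.

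The leukocyte chains rose together. Itgae had 14.9 CPM in multiplets and 2.67 CPM in singlets, the highest ratio of any member on summed UMIs at 5.60 (4.72 to 6.69). When every barcode counted equally it was 3.53, below 4.0 for Itgax and 3.79 for Itgad. Itgam had 45.8 CPM in multiplets and 13.2 CPM in singlets, a ratio of 3.46 that was 2.27 with equal weights. Itgax had 73.3 CPM in multiplets and 21.9 CPM in singlets, a ratio of 3.35. Itgal had a ratio of 3.09, Itgad of 2.86 (4.64 without the 10 highest barcodes of each library) and their partner Itgb2 of 3.06, with 133 CPM of Itgb2 in multiplets and 43.4 CPM in singlets. Thus every alpha chain that pairs with Itgb2 was higher in multiplets, as was Itgb2.

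The other beta chains were mixed. Itgb7 had 41.4 CPM in multiplets and 19.7 CPM in singlets, a ratio of 2.10, and Itgb4 had 6.56 CPM in multiplets and 4.08 CPM in singlets, a ratio of 1.61. Itgb3 was just past the limit at 1.53 (1.23 to 1.91), and both it and Itgb7 were at 1.36 with equal weights. Itgb1 had 424 CPM in multiplets and 505 CPM in singlets, a ratio of 0.84, and Itgb5 at 0.67 stood just inside the limit with 62.5 CPM in multiplets and 92.9 CPM in singlets. Itgb8 was lower at 0.57. Itgb6 had a ratio of 1.26, which was 2.13 with equal weights.

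Laminins of the fibroblast set were lower as a group. Lama2 had 29.5 CPM in multiplets and 85.9 CPM in singlets, a ratio of 0.34 (0.33 to 0.36). Lama4 had 55.1 CPM in multiplets and 140 CPM in singlets, Lamb1 had 45.8 CPM in multiplets and 124 CPM in singlets, and Lamc1 had 59.9 CPM in multiplets and 146 CPM in singlets, with ratios of 0.39, 0.37 and 0.41. Lamc3 stood at 0.43 and Lamb2 at 0.61. Lama3, Lamb3 and Lama5 did not pass the limit, with ratios of 0.97, 0.92 and 1.07, which were 1.69, 1.25 and 1.22 with equal weights. Lama1 had 21 UMIs in multiplets and 9 UMIs in singlets and was too scarce to count.

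**Figure D3:**
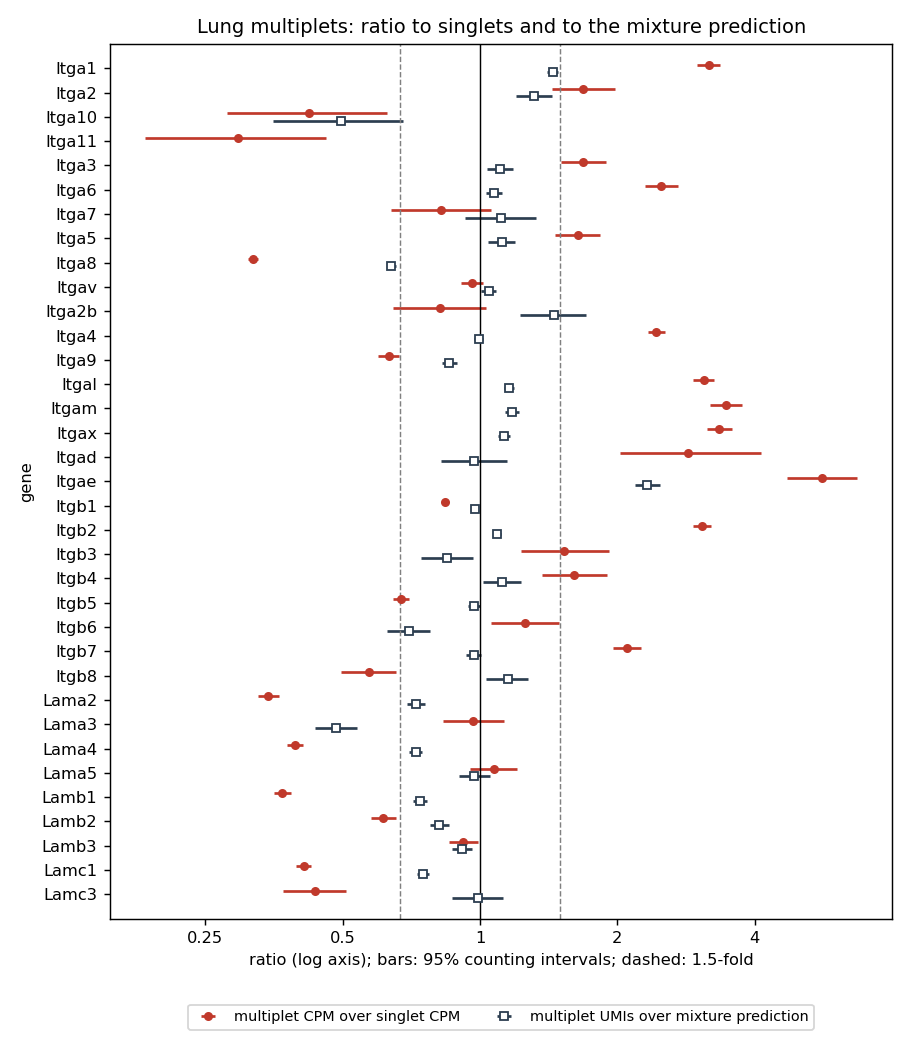
Ratios for 35 of the 36 counted lung members (rows), on a log axis: filled circles give multiplet over singlet CPM, open squares give multiplet UMIs over those predicted from the cell classes in each multiplet, with 95% counting intervals and dashed lines at 1.5-fold. Circles reach from 0.30 (Itga11) to 5.60 (Itgae), whereas all squares but those of Itgae, Itga8, Itga10 and Lama3 lie between the dashed lines.

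To set members against the mix of cells in each multiplet, every multiplet was fitted as a mixture of the singlet classes on genes that left all members out. The UMIs of a member were then divided by those the fitted classes predict. Of 35 lung members with enough UMIs, 1 was over 1.5-fold higher than predicted, where 3.62% of 15092 genes were higher, and 3 were lower, where 2.86% were lower. Itgae had 990 UMIs in multiplets against 425.5 predicted, a ratio of 2.33 (2.18 to 2.48). The 3 lower members were Itga10 at 0.50 (0.35 to 0.68), Itga8 at 0.64 (0.63 to 0.65) and Lama3 at 0.48 (0.43 to 0.54). The Lama3 value turns round to 1.60 when the classes with 6 and 10 singlets are left out of the mixture, an alternative chosen after seeing the data. The Itga8 value was 0.69 when class profiles left out singlets that Scrublet marked as doublets.

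Most members that differed in the library sums were close to their prediction. Itga4 stood at 0.99, Itgb7 at 0.97, Itgb2 at 1.09, Itgax at 1.13, Itgal at 1.16 and Itgam at 1.18. Itga1 stood at 1.44 (1.41 to 1.48) and Itga6 at 1.07. The fibroblast laminins were below their prediction but inside the limit, with Lama2 and Lama4 at 0.72, Lamb1 at 0.74 and Lamc1 at 0.75. Lama2 passed the limit, at 0.66, when only classes of at least 50 barcodes were in the mixture. The median log2 of observed over predicted UMIs was -0.04 over members and -0.02 over all genes.

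In the same fit 3598 of 4729 lung multiplets (76.1%) held a single class at a weight of 0.15 or more, and members could be compared there with singlets of that class. Whether such a barcode holds several cells of a class or 1 cell cannot be told apart. Itgax had 307 CPM in the 611 multiplets of alveolar macrophages alone and 295 CPM in alveolar macrophage singlets, a ratio of 1.04 (0.97 to 1.12). Itga9 had 114 CPM in multiplets of type II pneumocytes alone and 114 CPM in the singlets, and Itgb7 had 243 CPM in multiplets of T cells alone and 240 CPM in the singlets. Itga8 had 761 CPM in multiplets of fibroblast-1 cells alone and 931 CPM in the singlets, and Itga1 had 792 CPM in the 351 multiplets of endothelial cells alone and 646 CPM in the singlets. None of these 5 passed 1.5-fold.

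**Figure D4:**
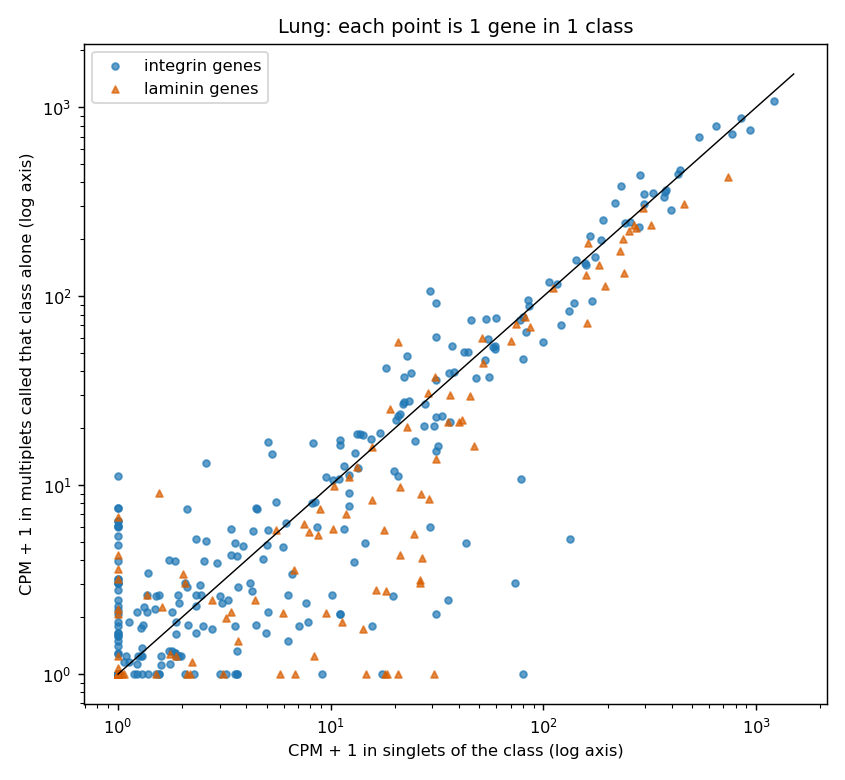
Each point is a member in a lung class, with CPM plus 1 in multiplets called that class alone (vertical) against singlets of the class (horizontal), both on log axes, for the 11 classes with at least 20 such multiplets. Points near the diagonal line have equal levels, as for Itgax in alveolar macrophages (307 and 295 CPM), and points far below it include Itga8 in endothelial cells (4.19 and 133 CPM).

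These multiplets widen the view of the rare classes. The 26 multiplets of type I pneumocytes alone had 427 CPM of Lama3, 305 CPM of Lamb3, 285 CPM of Itga3 and 463 CPM of Itgb6. The 6 type I singlets had 732, 455, 396 and 436 CPM of these genes. Lama3 was lower in the multiplets, at 0.58 times the singlets (0.39 to 0.88), while Itgb6 stood at 1.06. The 66 multiplets of mesothelial cells alone had 190.0 CPM of Lamb2, 145 CPM of Lamc1 and 76.4 CPM of Lama5, against 161, 182 and 80.7 CPM in the 10 singlets.

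Itgae was higher in multiplets of macrophages alone, with 47.5 CPM against 21.7 CPM in macrophage singlets, a ratio of 2.19 (1.65 to 2.95). Within this class S100a8 had 5262 CPM in multiplets and 1382 CPM in singlets, and C1qa had 661 CPM in multiplets and 228 CPM in singlets. The T cell marker Cd3e had 12.7 CPM in multiplets and 8.0 CPM in singlets of the class. The part of these in the Itgae value was not tested. Itga3 was higher in multiplets of endothelial cells alone, with 91.3 CPM against 30.2 CPM in endothelial singlets, a ratio of 3.02 (1.97 to 4.84).

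Itga8 was lower in multiplets of other classes alone than in the matching singlets. It had 1.48 CPM in multiplets of alveolar macrophages alone and 34.6 CPM in their singlets. The gene had 4.19 CPM in endothelial multiplets and 133 CPM in endothelial singlets, and 9.72 CPM in macrophage multiplets and 77 CPM in macrophage singlets. Markers of other types moved in the same direction in these classes: Col1a1 had 7.42 CPM in endothelial multiplets and 124 CPM in endothelial singlets, and Sftpc had 672 and 12459 CPM there. Calling a single class itself leaves out barcodes with RNA of another class, and the part of this in the difference was not tested.

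Partner chains in the same barcode were counted after thinning each barcode to a fixed number of UMIs. At 1500 UMIs, Itgal with Itgb2 was found in 4.59% of lung multiplets and 1.73% of singlets. At 5000 UMIs, which all 4729 multiplets and 4773 of the singlets reached, the shares were 17.3% (16.2 to 18.4) in multiplets and 4.71% (4.13 to 5.35) in singlets, and unthinned they were 30.1% and 8.32%. Fibroblast-1 singlets, which should lack the pair, had 0 of 2244 barcodes at 5000 UMIs, with an exact upper bound of 0.164%. The pair was thus found more often in multiplets at each depth. A multiplet barcode can hold several cells, so chains found together there need not come from the same cell. Each chain was also higher in multiplets on its own, with ratios of 3.09 for Itgal and 3.06 for Itgb2.

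**Figure D5:**
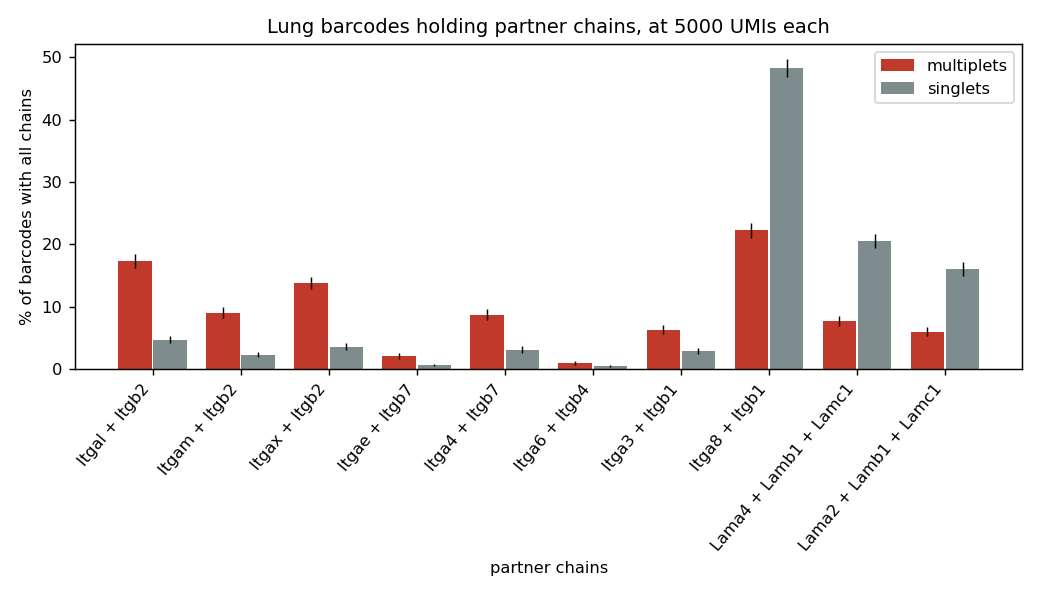
Share of lung barcodes that held a UMI of every named partner chain, each barcode thinned to 5000 UMIs, in multiplets (left bar) and singlets (right bar), with exact 95% intervals. Leukocyte pairs stand higher in multiplets, such as Itgax with Itgb2 at 13.7% and 3.56%, and fibroblast sets stand lower, such as Itga8 with Itgb1 at 22.3% and 48.2%.

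Itgax with Itgb2 was found at 5000 UMIs in 13.7% of multiplets and 3.56% of singlets (unthinned 25.5% and 5.05%). Itgam with Itgb2 was found in 9.03% of multiplets and 2.30% of singlets (unthinned 15.8% and 4.6%). Shares for Itga4 with Itgb7 were 8.71% of multiplets and 3.10% of singlets (unthinned 16.8% and 5.70%), and for Itgae with Itgb7 2.07% and 0.608% (unthinned 5.03% and 0.920%). Within singlets the Itgax and Itgb2 pair was found in 59.0% of 227 alveolar macrophages, and in 0 of 1009 type II pneumocytes with an upper bound of 0.365%. In type II singlets Itgam with Itgb2 and Itga4 with Itgb7 were each found in 1 of 1009 barcodes, and Itgae with Itgb7 in 0 of 1009. The median depths of alveolar macrophages and type II pneumocytes were 14028 and 16009 UMIs. Fibroblast sets stood the other way: Itga8 with Itgb1 was found in 22.3% of multiplets and 48.2% of singlets (unthinned 27.0% and 54.0%), and Lama4 with Lamb1 and Lamc1 in 7.72% of multiplets and 20.6% of singlets (unthinned 17.0% and 32.0%). In type II singlets, which should lack both sets, the shares at 5000 UMIs were 1.19% for Itga8 with Itgb1 (4.86% unthinned) and 0 of 1009 for the laminin set, with an upper bound of 0.365% (0.297% unthinned).

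In the small intestine none of the counted members differed between multiplets and singlets by over 1.5-fold. Of 14 counted members 0 were higher, where 1.42% of 11674 intestinal genes were higher, and 0 were lower, where 3.87% were lower. Integrins summed to 310 CPM in multiplets and 312 CPM in singlets, and laminins to 11.2 CPM in multiplets and 12.1 CPM in singlets. Itgb1 had 104 CPM in multiplets and 112 CPM in singlets, a ratio of 0.92 (0.89 to 0.96). Itga6 had 99.9 CPM in multiplets and 98.5 CPM in singlets, a ratio of 1.01 (0.97 to 1.06). The member farthest from even was Itgam, with 6.61 CPM in multiplets and 4.82 CPM in singlets, a ratio of 1.37 (1.16 to 1.63). The median log2 ratio was -0.01 over members and -0.10 over all counted genes.

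Beside Itgam, Lyz2 and Fcer1g of the myeloid list were higher in intestinal multiplets, with 6.12 CPM of Lyz2 in multiplets and 1.49 CPM in singlets, and 0.987 CPM of Fcer1g in multiplets and 0.293 CPM in singlets. Lyz2 led in Paneth cells among the singlets, at 26.0 CPM, and does not mark myeloid cells alone here. Csf1r and Tyrobp were listed in the multiplets alone, with 5 and 36 UMIs. Of the 3 B cell markers counted, Cd79a (1.26 CPM in multiplets and 0.293 CPM in singlets) and Igkc (3.02 and 0.817 CPM) were higher too. Cd79b was level, with 1.62 CPM in multiplets and 1.67 CPM in singlets. The part of these markers in the Itgam value was not tested. Against the mixture prediction none of the 14 intestinal members passed 1.5-fold in either direction, where 1.09% of 11612 genes were higher and 1.52% were lower, and Itgam stood at 1.42 (1.27 to 1.58). Among the members too scarce to count, Lama3 had 35 UMIs in multiplets and 13 in singlets.

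In intestinal multiplets called a single class, Itga6 was inside 1.5-fold of its level in singlets of the class. It had 188 CPM in the 147 multiplets of stem cells alone and 151 CPM in stem singlets. In Paneth cells Itga6 had 13.4 CPM in multiplets and 13.0 CPM in singlets, and in enterocytes 42.6 CPM in multiplets and 43.4 CPM in singlets. Itga3 had 31.4 CPM in enterocyte multiplets and 27.4 CPM in enterocyte singlets, and 1.97 CPM in stem multiplets and 5.30 CPM in stem singlets, from 2 and 19 UMIs (ratio 0.37, 0.042 to 1.54). Itgb1 in Paneth cells was again low, at 14.1 CPM in the 157 multiplets and 15.6 CPM in the 88 singlets. The hemidesmosome pair Itga6 with Itgb4 was found at 5000 UMIs in 3.49% of intestinal multiplets (2.89 to 4.17) and 3.32% of intestinal singlets (2.83 to 3.88), or 14.4% and 8.37% unthinned, and in 0 of 87 Paneth singlets, with an upper bound of 4.15%.

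Genes that work with integrins and laminins were counted in the lung from lists of such genes. Among 21 adaptors and activators that link integrins to actin, 7 were higher in lung multiplets and 2 were lower, where 15.9% of all counted lung genes were higher and 13.8% were lower. The higher ones included Fermt3, the kindlin of blood cells (58.3 CPM in multiplets and 23.6 CPM in singlets), Apbb1ip, which recruits talin (143 and 62.5 CPM), Parvb (17.3 and 3.09 CPM) and Parvg (12.1 and 3.60 CPM). Pxn, Rap1a and Rap1b were higher too, at ratios of 1.51, 1.56 and 1.53, the last of which was 1.46 with equal weights. Fermt2, the kindlin of most other cells, was lower (173 CPM in multiplets and 320 CPM in singlets), as was vinculin, Vcl (84.2 and 147 CPM).

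Of 14 partners of laminin in basement membranes 9 were lower in lung multiplets and 0 were higher, with a median log2 ratio of -0.83. With every barcode weighted equally Col4a1 (0.68) and Col4a2 (0.74) did not pass the limit, while Col4a3 (2.45) and Col4a4 (1.82), both named after their values were seen, were higher. TMM scaling put Col4a2 at 0.68 and Col4a3 at 1.52. The 9 lower genes were the type IV collagens Col4a1, Col4a2, Col4a5 and Col4a6, the related Col15a1 and Col18a1, the perlecan gene Hspg2, Sparc and Nid1, which bridges laminin to collagen. Nid1 had 44.2 CPM in multiplets and 112 CPM in singlets. Of 10 hemidesmosome and laminin receptor partners 2 were lower, Col17a1 and Sgcb, and 0 were higher, which is near the share of all genes that were lower. Of 20 integrin ligands and related genes 6 were higher and 10 were lower. The Itga8 ligand Npnt had 393 CPM in multiplets and 1036 CPM in singlets and led in fibroblast-1 cells with 2486 CPM, the class that led in Itga8. Vcam1, a ligand of Itga4, was lower (119 CPM in multiplets and 251 CPM in singlets), and Icam2, a ligand of Itgal, was higher (70.4 CPM in multiplets and 11.5 CPM in singlets) and led in endothelial cells. The other higher genes of this list were Spp1, Tgfb1, Nrros, F11r and Vtn, and the other lower ones were Fn1, Fbn1, Fbln5, Ltbp1, Tgfb3, Thbs1, Tnc and Jam3. In the small intestine none of the 15 adaptors, 9 hemidesmosome partners, 4 basement membrane partners and 3 ligands counted passed the limit.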

How the data were processed

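Small intestinal epithelium and lung were measured by droplet single-cell RNA sequencing, 1 library each of multiplets and singlets. The authors deposited raw UMI counts per gene and barcode (whole numbers, not normalized) and an annotation with a quality flag and, for singlets, cell classes. Cell Ranger 4.0.0 and the build mm10 appear among the tools and builds of the submitters' processing notes. The making of the classes and of the flag is not given in sources used here. Libraries held 47764845 to 66277622 UMIs. Every counted barcode bore the passing flag and was used. Between 2 and 15 barcode sequences were shared by any pair of libraries (at most 0.284%).

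The members and lists were chosen with earlier results of these data known. Every member may be named, of the related lists those past 1.5-fold or leading a class, and any marker. UMIs were summed per class or library and divided by the total (CPM), with exact Poisson or Clopper-Pearson intervals at 95%, and ratios with exact conditional binomial intervals for genes with at least 50 UMIs. Each multiplet was fitted as a Poisson mixture of class profiles by expectation maximization (300 iterations) on 40 genes per class (10 CPM added). This gave 520 genes in the lung and 400 in the small intestine. The method was tried on multiplets simulated from pairs of the same class profiles. Such data cannot show how it behaves where the cells of real multiplets differ from the singlet profiles. Doublets were marked by Scrublet (scanpy 1.11.5): 82 of 5279 in the intestine (1.55%) and 123 of 6084 in the lung (2.02%). Those marked stayed in the values reported, and leaving them out was an alternative. TMM factors of edgeR 4.0.16 served as another alternative and no test was run with them. Gene positions and exon overlaps came from GENCODE M21 (GRCm38), and the exons of Itga1, Itga10, Itgad and Itgam overlap those of another gene on the same strand. Counts, sums and medians cover all members, of which 1 is not reported here by name or drawn.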

Additional observations from a re-analysis of the deposited data

Results flagged for a closer look

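Itgal and Itgb2, the chains of the main leukocyte receptor for Icam1, had 7 and 4 UMIs in the small intestinal multiplets although neither gene was listed in the small intestinal singlets. They were noted because they appear in data that no comparison used. The marker Cd3e had 2 UMIs in the same multiplets, and Tyrobp had 36.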

How the results depend on the processing

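In the lung the 15 higher and 11 lower members kept their calls under TMM scaling, deep singlets alone and without the 10 highest barcodes per gene. A 2-fold limit left 10 and 8. The shares of all genes past a limit were counted for the values reported and not for these alternatives. With every barcode weighted equally 14 were higher, of which 12 were among the 15 (Itgb6 and Lama3 added), and 10 were lower. In the small intestine 1 higher (Lama3) and 2 lower (Itga5 and Itgb8) members appeared without a minimum of UMIs. TMM moved the median log2 ratio of all counted intestinal genes to 0.0032, against -0.10 without it. Leading members numbered 3 in the small intestine with equal weights and 2 without Scrublet doublets, against 1. Lung members above the mixture prediction numbered 2 without Scrublet doublets (Itga2b at 1.60 added) and 4 with classes of at least 50 barcodes alone (Itga3 at 1.70, Itgb6 at 1.69 and Lama3 at 1.60 added), where Lama3 reversed and Lama2 became lower at 0.66. That alternative was chosen after seeing the data. Partner shares grew with the UMIs kept. No paired analysis was possible because each group has 1 library. Depth limits the intestinal members under 50 UMIs and the type I class of 6 singlets.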
